A study of Schmidtea mediterranea with 24 samples.

Results

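The transcripts described here were lowered in planarians after RNAi of the Hox gene *lox5b* and stayed within a set distance of the control level after RNAi of 4 other Hox genes. Within that distance most of them lay below control RNAi. They were chosen by their measured values. A gene was taken if its mean level over all 24 libraries was at least 1 TPM (transcripts per 1000000, a level corrected for transcript length), if its mean log2(TPM + 0.5) in *lox5b* RNAi animals lay at least 1 below that of control RNAi animals, and if the same difference lay between -0.5 and 0.5 in *hox1*, *hox3a*, *hox3b* and *post2b* RNAi animals. The 24 genes that the study lists as effectors or markers were left out, and 0 of them met the other conditions. This gave 49 of 22197 genes, or 49 of the 14306 genes with a mean of at least 1 TPM. The differences from control RNAi that chose them are given as a description, and nothing is read from counts of calls on them.

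The animals were whole asexual adults of *Schmidtea mediterranea* of the clonal CIW4 strain, so all groups shared 1 genetic background. They were fed purified dsRNA of *lox5b*, *hox1*, *hox3a*, *hox3b* or *post2b*, or of *unc-22* as the control, 7 times and were then starved for 5 days. Each of the 6 groups had 4 libraries, and each library pooled RNA from 3 animals, so the spread between libraries is a spread between pools. In whole animals, fewer cells of a type and less RNA per cell cannot be told apart. The gene ID of *lox5b* itself was not paired with its name in the sources used here, so the loss of its own transcript was not analysed here.

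Hox genes encode homeodomain transcription factors, which bind DNA and set regional identity along the body axis of many animals. Planarians replace their tissues throughout life from dividing neoblasts, and asexual strains reproduce by tearing off the tail and regenerating the missing parts. In RNAi, dsRNA is cut into short RNAs that lead to the loss of the matching mRNA. The ends of the template for the *lox5b* dsRNA are shown because they name the sequence that set the group apart. They are the gene-specific primer bases, 5′ to 3′, that follow a start shared by the 36 primers of the same direction in the study's primer list.
lox5b forward: actcaaaatctgaatttgccgta
lox5b reverse: tgatttgcctttccgttaaagat

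Silencing of *lox5b* took the 49 transcripts to a median level of 7.64 TPM in *lox5b* RNAi animals, against 17.003 TPM in control RNAi animals. The control levels spanned 1.65 to 6755 TPM, and the median of all genes of at least 1 TPM was 18.8 TPM. In control RNAi animals 11 transcripts were under 5 TPM and 9 above 100 TPM, beside 18.6% and 11.3% of all genes of at least 1 TPM. The log2 difference between *lox5b* and control RNAi had a median of -1.11 and ran from -1.76 to -1.002. Over all genes of at least 1 TPM this median was -0.15. Most of the 49 lay near the limit of the rule, 38 of them above -1.2 and 23 above -1.1. The rule starts at a 2-fold drop and also left out genes that moved in another group. The crowding near the limit is thus not read as a typical size of loss.

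The same rule with another Hox gene in the place of *lox5b* gave 27 transcripts for *hox1*, 1 for *hox3a*, 0 for *hox3b* and 28 for *post2b*. The reverse pattern, a log2 difference of at least 1 in *lox5b* RNAi animals and the same limits elsewhere, was met by 7 genes. The condition on the other groups removed most candidates. Of 562 genes whose log2 difference was -1 or lower in *lox5b* RNAi, 88 stayed within 0.5 in exactly 3 of the other Hox RNAi groups and 49 in all 4. Among those 88, the group outside the limits was *hox3a* for 41, *hox1* for 23, *post2b* for 18 and *hox3b* for 6.

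**Figure D1:**
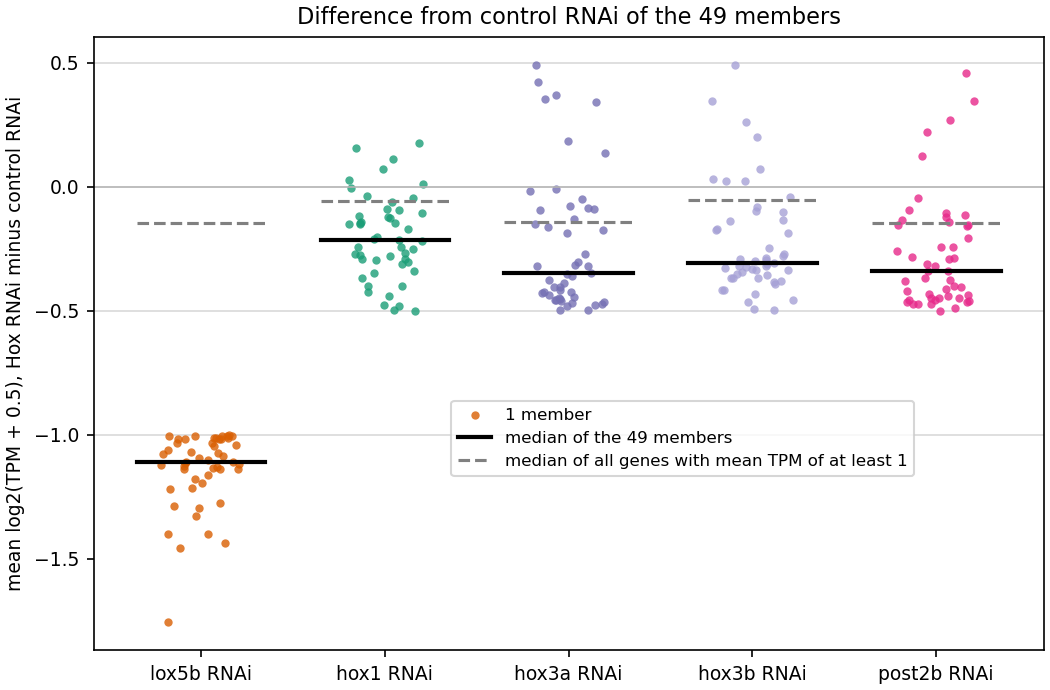
Mean log2(TPM + 0.5) of each Hox RNAi group minus that of control RNAi for the 49 transcripts (points), with their median (black line) and the median of all genes of at least 1 TPM (dashed line). The *lox5b* points end at -1.002 and the other groups stay within 0.5 because the rule set these limits. Within them the median of the 49 lies below that of all genes in every group. The rule favours high control values, which all groups share, so nothing is read from this.

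The set was also described within the limits for the other 4 Hox RNAi groups. The median log2 difference from control RNAi over the 49 was -0.22 in *hox1*, -0.35 in *hox3a*, -0.31 in *hox3b* and -0.34 in *post2b* RNAi animals, against -0.06, -0.14, -0.05 and -0.15 over all genes of at least 1 TPM. A difference below 0 was found for 43 of the 49 in *hox1*, 42 in *hox3a*, 41 in *hox3b* and 44 in *post2b* RNAi, where it was found for 62.0%, 75.2%, 61.6% and 75.1% of all genes of at least 1 TPM. After a rescaling by the median of ratios the medians over the 49 were -0.16, -0.20, -0.25 and -0.18, in the same order of groups. Over all genes of at least 1 TPM they were -0.001, 0.006, 0.008 and 0.002. On this scale 40, 34, 40 and 35 of the 49 were below 0, but the share over all genes was not counted. Only 2 stayed within 0.25 in all 4 in TPM as deposited. Of the 5 groups other than *lox5b* RNAi, control RNAi had the highest mean for 34 transcripts. The same counts over all genes were not made, so nothing is read from the 2 and the 34 about the set. The other 4 Hox RNAi groups share their control libraries, so a high control value moves all of them together. Since the rule favours high control values, nothing is read from the lower medians or the counts below 0 either.

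At a looser call, an adjusted p under 0.05 at any fold change (limma on log2(TPM + 0.5) with Benjamini-Hochberg adjustment over 15829 genes), 17 of the 49 were also lower in at least 1 other Hox RNAi group. On rescaled TPM, described with the scaling of the libraries, this number was 3. In *hox3a* RNAi animals 12 were called lower, where 22.7% of all tested genes were, and in *post2b* RNAi animals 13, where 24.5% were. The counts were 3 in *hox1* RNAi, beside 3.05% of all tested genes, and 2 in *hox3b* RNAi, beside 3.27%. The shares in *hox3a* and *post2b* RNAi are near those of all tested genes, and nothing is read from the 4 counts about the set. The share of all tested genes lower in at least 1 other group was not counted, so nothing is read from those numbers either. A missed call does not show that a transcript was at the control level.

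SMESG000032396.1 and SMESG000056345.1 were the 2 transcripts called lower in each of the other 4 groups, which share their control libraries. SMESG000056345.1 had 3.63, 2.58, 3.80 and 3.82 TPM in *lox5b* RNAi animals, against 8.19, 8.78, 8.46 and 9.05 TPM in control RNAi animals. Its levels in the other Hox RNAi groups formed a middle tier between 5.44 and 7.40 TPM, which overlapped neither *lox5b* nor control RNAi. SMESG000032396.1 had 41.0, 35.1, 39.9 and 43.2 TPM in *lox5b* RNAi animals, against 88.0, 76.4, 81.9 and 82.9 TPM in control RNAi animals. The *hox1* and *hox3b* RNAi libraries lay between these groups, from 52.1 to 68.1 TPM, whereas the highest *hox3a* library, at 78.7 TPM, overlapped control RNAi.

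Single libraries are set side by side here as a description. All 4 *lox5b* libraries lay below all 4 control libraries for 46 transcripts, which was the case for 32.6% of all tested genes. They lay below all 20 other libraries for 30, beside 2.38% of all tested genes. By limma 48 of the 49 were called lower at the 2-fold limit and an adjusted p of 0.01, beside 3.92% of all tested genes, and 49 at an adjusted p of 0.05 and any fold, beside 37.2%. In the other direction 0.259% of all tested genes passed the 2-fold limit. The set was chosen by this difference in these libraries, so nothing is read from the counts. The standard error of the log2 difference ran from 0.085 to 0.347 over the 49, with a median of 0.16.

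Against each of the other Hox RNAi groups directly, 48 of the 49 were lower after *lox5b* RNAi with an adjusted p below 0.05 (limma with Benjamini-Hochberg adjustment). The share of all tested genes was 19.8% against *hox1*, 11% against *hox3a*, 22.1% against *hox3b* and 10.7% against *post2b*. The transcripts that missed the call in a comparison were SMESG000040021.1, SMESG000066271.1 and SMESG000010017.1. The conditions of the rule fix most of this difference as well.

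**Figure D2:**
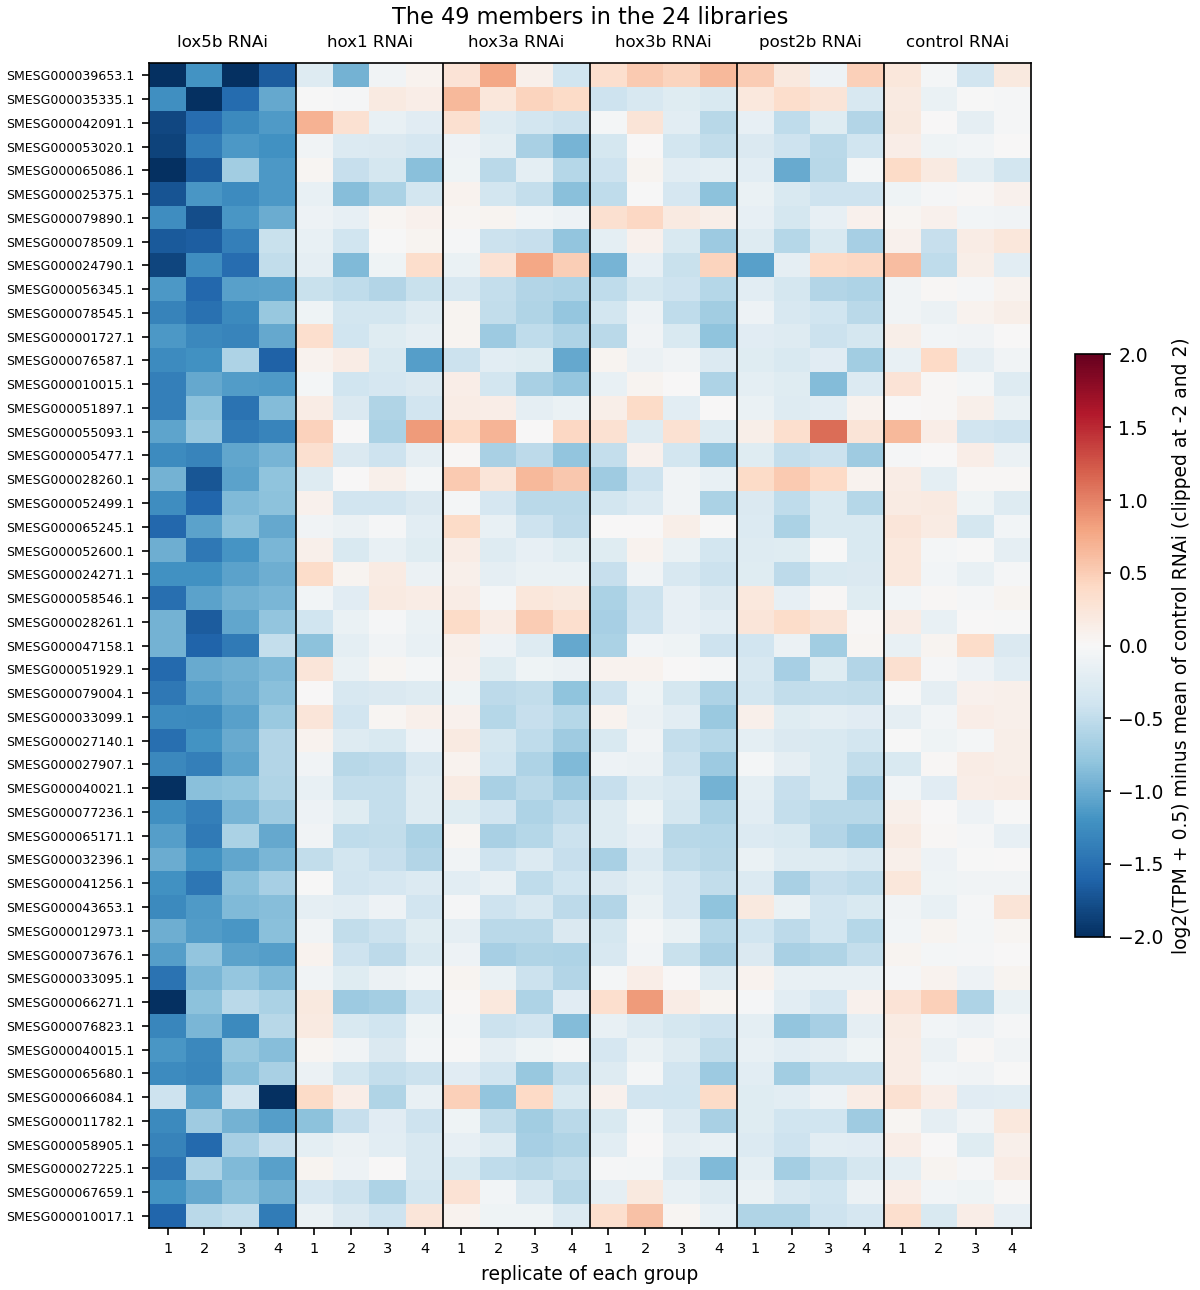
Each of the 49 transcripts (1 per line, lowest difference at the top) in each of the 24 libraries (columns, by RNAi group and replicate), coloured by log2(TPM + 0.5) minus the mean of the 4 control libraries. The *lox5b* columns are blue throughout, replicates 1 and 2 deeper than replicate 4, and the other Hox RNAi columns are mostly pale blue, with a few red lines such as SMESG000035335.1 in *hox3a* RNAi.

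Most of the RNA of the set came from 3 transcripts. SMESG000035335.1, SMESG000028261.1 and SMESG000028260.1 summed to 5430 ± 1410 TPM in *lox5b* RNAi animals, against 12902 ± 1155 TPM in control RNAi animals (SD, n = 4 each), in a total over all 49 of 7848 ± 1671 and 18018 ± 1321 TPM. The other 46 transcripts summed to 2418 ± 435 TPM in *lox5b* RNAi animals and 5116 ± 223 TPM in control RNAi animals.

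SMESG000035335.1 had 2864, 1635, 2315 and 3327 TPM in *lox5b* RNAi animals, against 7607, 6111, 6669 and 6635 TPM in control RNAi animals. The groups did not overlap, and the log2 difference was -1.46. In *hox3a* RNAi animals it reached 10511, 7844, 9189 and 8798 TPM, all above control RNAi, and in *hox3b* RNAi animals it stayed at 5063, 5373, 5696 and 5463 TPM, all below. The log2 differences of these groups were 0.42 and -0.32, and the *hox1* and *post2b* RNAi libraries overlapped control RNAi, at 0.07 and 0.12.

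SMESG000028261.1 had 2099, 1277, 1969 and 2327 TPM in *lox5b* RNAi animals, against 4472, 3654, 4059 and 4029.7 TPM in control RNAi animals. SMESG000028260.1 had 1080.4, 637, 990.0 and 1199.6 TPM in *lox5b* RNAi animals, against 2324, 1823, 2115 and 2110.4 TPM in control RNAi animals. Replicate 2 of *lox5b* RNAi was the lowest library for all 3 transcripts and replicate 4 the highest. Both had their highest group mean in *hox3a* RNAi animals, at 5154 ± 536 and 2944 ± 345 TPM (SD, n = 4). SMESG000035335.1 and SMESG000028260.1 were the 2 transcripts of the 49 called higher than control in *hox3a* RNAi at an adjusted p under 0.05 (limma with Benjamini-Hochberg adjustment), a call met by 2.81% of all tested genes.

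**Figure D3:**
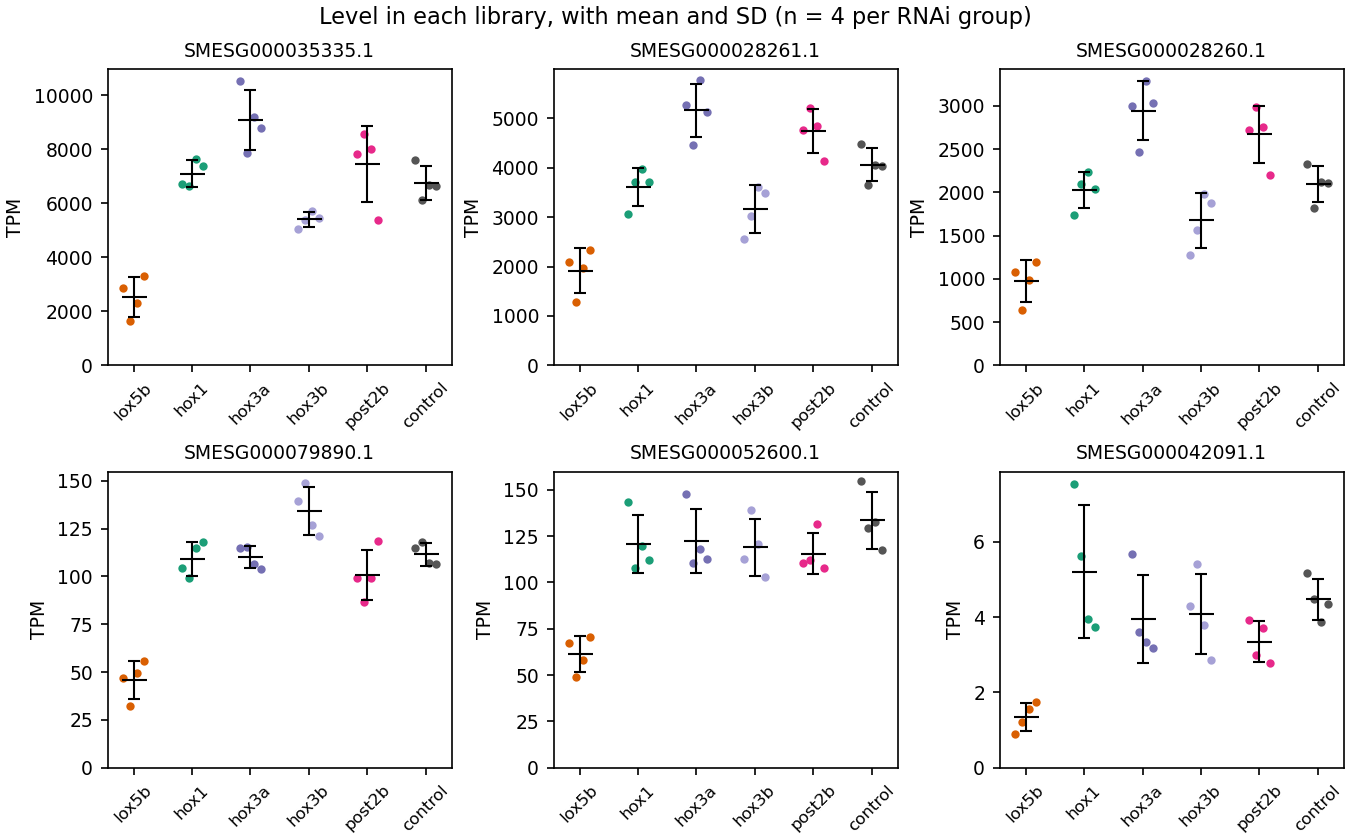
TPM in each library (points) with mean and SD (n = 4 per group) for the 3 most abundant transcripts of the set (upper panels) and for 3 others (lower panels), with *lox5b* RNAi at the left and control RNAi at the right of each panel. The upper panels share their shape, lowest in *lox5b*, next in *hox3b* and highest in *hox3a* RNAi, and the lower panels show a drop in *lox5b* RNAi to below every other library.

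SMESG000028260.1 and SMESG000028261.1 have consecutive gene IDs. Their ratio varied little, from 1.69 to 2.00 TPM of SMESG000028261.1 per TPM of SMESG000028260.1 over the 24 libraries, and their deviations from the group means followed each other (Pearson r = 0.99 over 24 libraries, as a description). Near-identical copies can share reads, and separate regulation and shared reads cannot be told apart in these values. SMESG000035335.1 followed each of them less closely (r = 0.84, 24 libraries). These 3 moved apart from the rest of the set, since the median r of their pairs with the other 46 was 0.04, beside 0.38 over all 1176 pairs of the 49 (24 libraries, which the pairs share).

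The genes numbered next to these were looked up after their values had been seen. SMESG000028264.1 had 2017, 1295, 2094 and 2498 TPM in *lox5b* RNAi animals, against 6452, 5423, 6708 and 7237 TPM in control RNAi animals, a log2 difference of -1.74. It missed the rule only through *hox3b* RNAi, where the difference was -0.54. SMESG000028263.1 missed both limits, at -0.98 in *lox5b* RNAi and 0.505 in *hox3a* RNAi, with 236 ± 49.5 TPM in *lox5b* RNAi animals and 456 ± 23.7 TPM in control RNAi animals (SD, n = 4 each). Both had the shape of their numbered neighbours, highest in *hox3a* RNAi, and their deviations followed SMESG000028261.1 with r = 0.91 and 0.95 (24 libraries, as a description). SMESG000028258.1, numbered just before them, had the lowest *lox5b* difference of these genes, -2.05, but not their shape, since it was at -0.65 in *hox3a*, -0.76 in *hox1* and -0.96 in *hox3b* RNAi. It had 14.2 ± 5.61 TPM in *lox5b* RNAi animals and 64.1 ± 37.0 TPM in control RNAi animals (SD, n = 4 each).

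Lowered neighbours in the numbering were counted for the whole set. Taking the nearest genes of at least 1 TPM within 3 numbers on either side, 12 of 50 neighbours of the set, 24%, had a log2 difference of -1 or lower in *lox5b* RNAi, 4 of them in the set itself. The share was 15.3% around the other genes that fell as far and 4.24% around all genes. This is a count and not a test, and where the IDs lie in the genome was not analysed here. Next to SMESG000035335.1 stood SMESG000035333.1, with a log2 difference of -1.78 in *lox5b* RNAi and 0.87 in *hox3a* RNAi. SMESG000010015.1 and SMESG000010017.1, both in the set, were followed by SMESG000010018.1 and SMESG000010020.1, with -1.45 and -1.54 in *lox5b* RNAi. These 2 followers were also lower elsewhere, at -0.99 and -0.39 in *hox1* and -0.34 and -0.83 in *hox3a* RNAi. In *hox3b* RNAi they were at -0.20 and -0.44, and in *post2b* RNAi at -0.81 and -0.60.

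Other abundant members of the set fell without this shape. SMESG000027140.1 had 599.5, 744, 856 and 1143 TPM in *lox5b* RNAi animals, against 1713, 1619.7, 1673 and 1859 TPM in control RNAi animals. SMESG000078545.1 had 347, 313, 364 and 519 TPM in *lox5b* RNAi animals, against 839, 812, 922 and 951 TPM in control RNAi animals. For both, replicate 4 of *lox5b* RNAi was the highest of its group and lay above the lowest *hox3a* library, at 1045 TPM and 516 TPM. SMESG000067659.1 sat just inside the limit of the rule, with 439.6, 499, 564 and 519.8 TPM in *lox5b* RNAi animals, against 1102, 976, 947 and 1023 TPM in control RNAi animals, and its *lox5b* libraries lay below all 20 others.

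The lowest log2 difference of the set, -1.76, belonged to a rare transcript. SMESG000039653.1 was listed at 0, 0.426, 0 and 0.173 TPM in *lox5b* RNAi animals, against 1.99, 1.57, 1.12 and 1.93 TPM in control RNAi animals. It was above 0 in all 20 other libraries, where its lowest value was 0.605 TPM, and it was the only transcript of the set with a listed 0. The pseudocount of 0.5 makes the log2 difference understate a change at such levels. Other transcripts of the lowest control levels were SMESG000047158.1, with 0.222 to 1.08 TPM in *lox5b* RNAi animals and 1.29 to 2.33 TPM in control RNAi animals, and SMESG000027225.1, with 0.970 to 2.11 TPM in *lox5b* RNAi animals and 3.01 to 3.94 TPM in control RNAi animals. In *hox3b* RNAi animals SMESG000039653.1 had 2.19, 2.56, 2.40 and 2.83 TPM, all above control RNAi, at a log2 difference of 0.49.

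SMESG000042091.1 had 0.901, 1.22, 1.55 and 1.755 TPM in *lox5b* RNAi animals, against 5.17, 4.49, 3.87 and 4.34 TPM in control RNAi animals. SMESG000053020.1 had 14.4, 19.97, 23.7 and 22.8 TPM in *lox5b* RNAi animals, against 58.5, 50.2, 51.1 and 53.7 TPM in control RNAi animals. Their log2 differences were -1.44 and -1.40, and for both the *lox5b* libraries lay below all 20 others. SMESG000065086.1 reached the same difference of -1.40 with a wide spread, at 2.02, 2.82, 6.06 and 4.29 TPM in *lox5b* RNAi animals, against 13.4, 11.5, 8.73 and 7.75 TPM in control RNAi animals. Its highest *lox5b* library lay above a *post2b* library of 4.80 TPM and a *hox1* library of 5.46 TPM.

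SMESG000025375.1 had 5.58, 8.47, 7.97 and 8.56 TPM in *lox5b* RNAi animals, against 18.4, 19.3, 20.1 and 20.97 TPM in control RNAi animals. It was among the transcripts nearest to the outer limit, with a log2 difference of -0.499 in *hox1* RNAi, where its levels of 10.7 to 17.8 TPM lay below all control libraries. SMESG000056345.1 in *hox3a* and SMESG000073676.1 in *post2b* RNAi also had -0.499. The nearest genes outside this limit were SMESG000030842.1 and SMESG000012014.1 in *post2b* RNAi, at -0.502 and -0.503, and SMESG000071466.1 in *hox3b* RNAi, at -0.504. Likewise SMESG000027225.1, SMESG000067659.1 and SMESG000010017.1 were just inside the *lox5b* limit at -1.005, -1.004 and -1.002, and SMESG000077152.1, SMESG000061316.1 and SMESG000004908.1 just outside at -0.9999, -0.9996 and -0.997. The edge of the set therefore divides transcripts of nearly the same values.

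SMESG000079890.1 was not called lower in another Hox RNAi group. It had 46.6, 32.3, 49.3 and 55.8 TPM in *lox5b* RNAi animals, against 115, 118, 107 and 106 TPM in control RNAi animals. Its means were 109 ± 8.90 TPM in *hox1*, 134 ± 12.4 TPM in *hox3b* and 101 ± 13.2 TPM in *post2b* RNAi animals, and the lowest of the 20 other libraries had 86.8 TPM. Its *hox3b* libraries all lay above control RNAi, at a log2 difference of 0.26. It alone met the rule under each of 31 alternative settings of it. SMESG000052600.1 missed it under 1 of them, with 67.5, 49.1, 58.2 and 70.5 TPM in *lox5b* RNAi animals, against 155, 129, 133 and 117 TPM in control RNAi animals, and with means of 115 to 122 TPM in the other 4 Hox RNAi groups.

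In 3 further transcripts the other groups lay close together. SMESG000033095.1 had 2.19, 3.48, 3.89 and 3.58 TPM in *lox5b* RNAi animals, against 6.89, 7.44, 6.50 and 7.31 TPM in control RNAi animals. SMESG000040015.1 had 10.2, 9.23, 13.6 and 12.7 TPM in *lox5b* RNAi animals, against 26.0, 21.4, 23.8 and 22.2 TPM in control RNAi animals. Both had all *lox5b* libraries below all 20 others. SMESG000066084.1 had the closest other groups, with means of 2.38 to 2.66 TPM, but its own *lox5b* libraries were scattered at 1.81, 0.949, 1.87 and 0.193 TPM, against 3.32, 2.86, 2.14 and 2.15 TPM in control RNAi animals. Replicate 4 carried much of its difference, which was -1.01 with all libraries and -0.62 without that one.

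A name could be given to 1 transcript of the set, since the product table used here covers 609 of the genes of at least 1 TPM. SMESG000001727.1 is listed there as an unknown protein whose closest match is a *Hydra vulgaris* protein described as a probable G-protein coupled receptor, a member of the large class of membrane receptors that carry outside signals into the cell. It had 8.54, 7.74, 7.58 and 9.43 TPM in *lox5b* RNAi animals, against 21.4, 18.8, 18.6 and 19.8 TPM in control RNAi animals. The *lox5b* libraries were among the tightest of the set and lay below all 20 others, of which the lowest was a *hox3b* library with 10.98 TPM. The log2 difference was -1.19. Lists were set by product name (calcium handling, channels and transporters, receptors, proteases, adhesion, cytoskeleton, transcription, translation and mobile elements), and the closest match was not searched. Since the 1 named transcript is an unknown protein by product name, no list could hold a transcript of the set. Nothing is read from their absence. Of 676 tested genes in the product table, 21 were lower in *lox5b* RNAi by the 2-fold limma call, so few names were at hand and what the other 48 encode was not analysed here.

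For 3 transcripts the *lox5b* and control libraries overlapped. SMESG000078509.1 had 0.736, 0.769, 1.03 and 2.42 TPM in *lox5b* RNAi animals, against 3.71, 2.38, 3.90 and 4.17 TPM in control RNAi animals. SMESG000024790.1 had 0.445, 0.930, 0.667 and 1.89 TPM in *lox5b* RNAi animals, against 4.65, 1.87, 3.14 and 2.41 TPM in control RNAi animals. In each, replicate 4 of *lox5b* RNAi met replicate 2 of control RNAi. SMESG000066271.1 had 1.501, 4.32, 5.35 and 4.94 TPM in *lox5b* RNAi animals, against 9.67, 11.3, 5.01 and 7.25 TPM in control RNAi animals. Its difference of -1.02 rested largely on replicate 1 and was -0.66 without it.

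At the other end of precision stood transcripts with tight *lox5b* libraries. SMESG000024271.1 had 16.7, 16.6, 18.5 and 19.8 TPM in *lox5b* RNAi animals, against 45.7, 37.9, 35.6 and 38.7 TPM in control RNAi animals. SMESG000010015.1 had 14.1, 18.05, 16.8 and 16.6 TPM in *lox5b* RNAi animals, against 44.9, 37.9, 36.2 and 31.0 TPM in control RNAi animals. In contrast SMESG000010017.1, also in the set, had 12.98, 27.4, 28.8 and 14.8 TPM in *lox5b* RNAi animals, against 50.6, 32.5, 44.1 and 35.7 TPM in control RNAi animals, and its replicates 1 and 4 stood well below 2 and 3. SMESG000040021.1 was as uneven, with 0.989 TPM in replicate 1 and 2.89 to 3.53 TPM in the other *lox5b* libraries, against 4.71 to 6.23 TPM in control RNAi animals.

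The spread within groups was not used directly by the rule. However, a gene with a very low *lox5b* library meets the limit on the *lox5b* mean more easily. The median SD of log2(TPM + 0.5) between *lox5b* RNAi libraries was 0.32 over the 49, beside 0.16 over all genes of at least 1 TPM. In control RNAi animals it was 0.14, beside 0.12. The other groups fell between, at 0.28 in *hox3a*, 0.23 in *hox3b*, 0.19 in *hox1* and 0.19 in *post2b* RNAi animals, beside 0.13 to 0.14 over all genes. The transcripts thus varied more between pools of *lox5b* RNAi animals than between control pools, as all genes did to a lesser degree. The rule chose them on the same *lox5b* libraries, where their levels were lower, so nothing is read from this difference.

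The *lox5b* libraries differed in how far the set fell. The median log2 difference from the control mean was -1.27 in replicate 1, -1.22 in replicate 2, -1.04 in replicate 3 and -0.91 in replicate 4. Replicate 1 was the lowest *lox5b* library for 23 of the 49 and replicate 2 for 20, where these shares over all genes of at least 1 TPM were 36.6% and 23.3%. In control RNAi, replicate 1 was the highest library for 27 of the 49. The share over all genes was not counted for control libraries, and the rule favours high control values, so nothing is read from the 27.

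**Figure D4:**
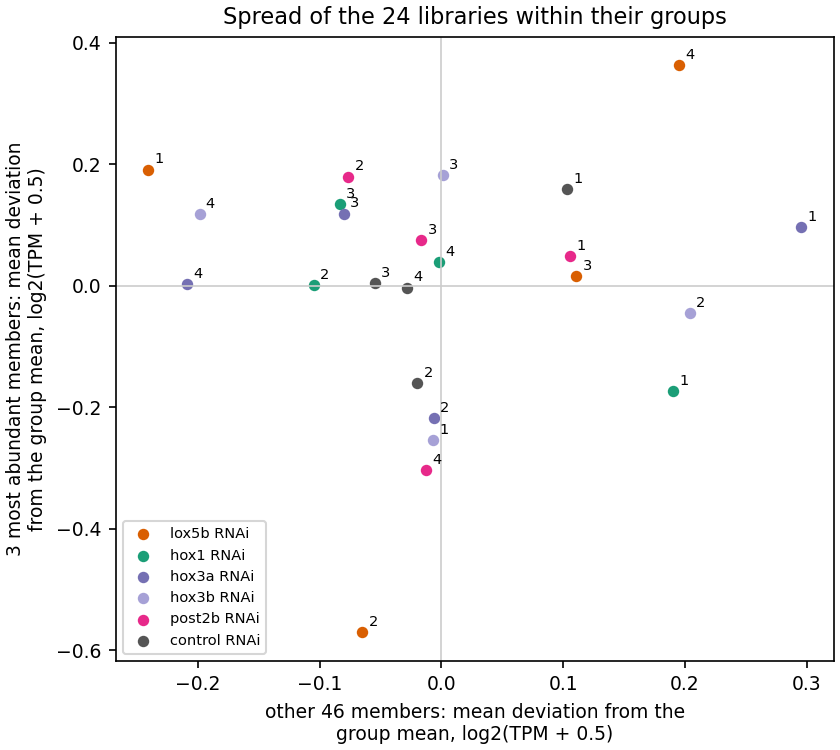
Each of the 24 libraries by its mean deviation from its group mean over the 3 most abundant transcripts (vertical axis) and over the other 46 (horizontal axis), both in log2(TPM + 0.5), with numbers for replicates. In *lox5b* RNAi, replicate 2 is lowest for the 3 abundant transcripts (-0.57) and replicate 1 for the other 46 (-0.24).

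This shift between libraries also split the set. For the 3 most abundant transcripts the mean deviation from the *lox5b* mean was -0.57 in replicate 2 and 0.19 in replicate 1, whereas for the other 46 it was -0.07 and -0.24. The pool with the lowest abundant transcripts was thus not the pool with the lowest remainder. Closely following pairs among the other 46 included SMESG000065680.1 with SMESG000077236.1 (r = 0.93, 24 libraries) and SMESG000078545.1 with SMESG000027907.1 (r = 0.93, 24 libraries). The second of these pairs differed widely in level, with 0.0314 to 0.0448 TPM of SMESG000027907.1 per TPM of SMESG000078545.1.

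The same measure was also read in libraries that the rule did not use. The rule was applied without 1 *lox5b* library, and the library left out was then set against the 4 control libraries, which stayed in the rule. Without replicate 1 the rule gave 37 genes, and replicate 1 lay below all control libraries for 35 of them, at a median log2 difference of -1.21. Without replicate 2 it gave 37 genes, and replicate 2 lay below all control libraries for all 37, at a median of -1.104. Over all genes of at least 1 TPM, these libraries lay outside the control range in the low direction for 55.7% and 50.4%.

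Replicates 3 and 4 gave smaller differences. Without replicate 3 the rule gave 62 genes, of which 60 were below all control libraries in replicate 3, at a median of -0.88. Without replicate 4 it gave 87 genes, of which 77 were below all control libraries in replicate 4, at a median of -0.69. Over all genes the shares were 48.8% and 48.2%, and the median differences of the 4 libraries were -0.20 to -0.12. A level of -1 or lower in the library left out was reached by 23 of 37, 23 of 37, 24 of 62 and 13 of 87 genes, in the order of the replicates. The control libraries in these counts were used by the rule, which favours genes with high control values, so the counts and medians are not free of it.

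**Figure D5:**
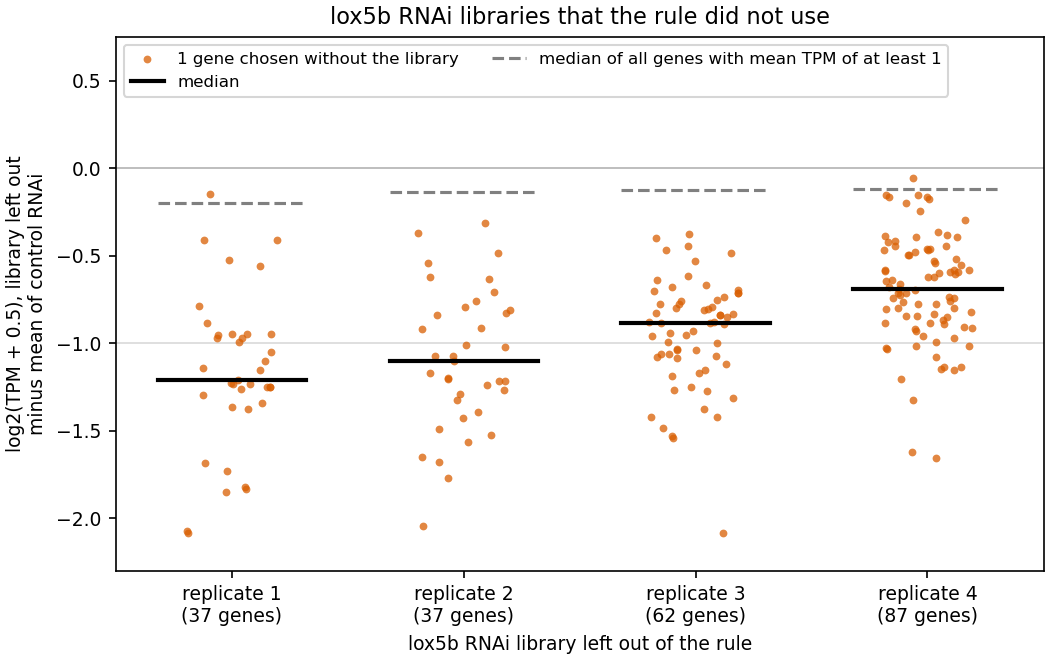
Log2(TPM + 0.5) of 1 *lox5b* library minus the control mean (vertical axis) for the genes that the rule chose without that library (points; 37, 37, 62 and 87 genes), with their median (black line) and that of all genes of at least 1 TPM (dashed line). The medians are -1.21, -1.104, -0.88 and -0.69 for replicates 1 to 4, all below the medians of all genes.

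Control libraries were left out in the same way. The rule then gave 38, 46, 48 and 49 genes without control replicates 1 to 4, and the control library left out lay above all *lox5b* libraries for 38, 44, 46 and 48 of them. Over all genes of at least 1 TPM these shares were 51.4%, 48.3%, 45.1% and 46.7%. The median difference of the 4 *lox5b* libraries from that control library was -1.29, -1.07, -1.04 and -1.11. Here the rule had used the *lox5b* libraries.

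The number of transcripts in the set rested on single libraries. It was 87 without *lox5b* replicate 4 and 27 without *hox3a* replicate 1, beside 49 with all libraries. Of the 49, 6 met the rule whichever 1 of the 24 libraries was left out. The count of 48 called lower in *lox5b* RNAi by limma was 29 without *lox5b* replicate 1.

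TPM in *lox5b* RNAi animals were lower than in control RNAi animals over genes at large. A rescaling by the median of ratios, with factors of 0.925 to 0.983 in *lox5b* and 1.05 to 1.10 in control RNAi libraries, moved the median log2 difference of all genes by 0.15. It took the median of the 49 to -0.96 (range -1.67 to -0.85), so that 34 of the 49 lay above -1, and 15 passed the 2-fold limit in limma, beside 2.6% of all tested genes. At an adjusted p below 0.05 and any fold (limma with Benjamini-Hochberg adjustment) 49 were called, beside 24.6%. Nothing is read from these counts either, since the set was chosen on the same libraries. At the same adjusted p 3 of the 49 were then lower in at least 1 other Hox RNAi group, against 17 before. These were 2 in *hox1*, 1 in *hox3a*, 2 in *hox3b* and 1 in *post2b* RNAi, beside 2.46%, 5.63%, 2.19% and 8.1% of all tested genes. The share of all tested genes lower in at least 1 other group was not counted, so nothing is read from the 3 and the 17. Between 16685 and 17109 genes were above 0 TPM in *lox5b* RNAi libraries, and between 17512 and 17843 in control RNAi libraries. Markers of the marginal adhesive gland and of 1 other parenchymal population were the cell type markers with gene IDs in the sources used here. They are *post2b* effectors of the study, which chose its candidates among genes that changed after Hox RNAi in the same libraries. The 11 markers summed to 1359 to 1668 TPM in *lox5b* RNAi animals and 1649 to 1887 TPM in control RNAi animals. Most of this sum was *rcn-1*, at 966 TPM in *lox5b* RNAi animals and 1109 TPM in control RNAi animals (means of 4 libraries). The paper also reports *rcn-1* in cells beside the pharynx, so it does not mark the gland alone. The median log2 difference over the 11 was -0.23. For 4 of them all *lox5b* libraries lay below all control libraries, beside 32.6% of all tested genes. The median was -0.34 over the 7 markers of the Epidermal-10 population, with a range of -0.65 to -0.03. Over the 3 of Parenchymal-8/13 it was -0.23, with a range of -0.90 (*syt1*) to -0.20 (*rcn-1*). The marker of Parenchymal-6/10, *eve*, was at 0.19. The part of these markers in the difference of the 49 was not tested.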

How the data were processed

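The authors fed animals dsRNA, froze them, made stranded mRNA libraries and sequenced single reads, which were demultiplexed with bcl2fastq2 2.20, aligned to smed_dd_g4 with STAR, and counted per gene with the Smes_hv_v1 models. The TPM values deposited by the authors cover 22197 genes and 24 libraries. The tool that turned counts into TPM is not given in the sources used here. Each library sums to 1000000 TPM, so the read depth is unknown, no counting error can be given, and the precision rests on the spread between 4 libraries per group.

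TPM were used as log2(TPM + 0.5). All 24 libraries entered 1 limma 3.58.1 fit under R 4.3.3 (eBayes with trend, a term for the RNAi group, two-sided p), with Benjamini-Hochberg adjustment over 15829 genes with at least 0.5 TPM in at least 4 libraries. The fit was tested on simulated data. The study tested counts with edgeR, which TPM do not allow. The set, the lists and the alternatives were chosen with earlier results of these data known. Transcripts were named if they had a product name, the 12 lowest log2 differences, the 6 highest or 6 lowest control levels, a place among the 3 next to a limit of the rule, an overlap with control libraries, one of the 4 smallest or 4 largest SDs between *lox5b* libraries, or one of the 4 closest sets of other groups. Other transcripts were named after their values were seen. Alternatives were other pseudocounts, filters and limits, group medians, TPM rescaled by the median of ratios, models without the trend, with fewer groups or with a replicate block, and the omission of each library.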

Additional observations from a re-analysis of the deposited data

Results flagged for a closer look

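In 104 groups of 4 libraries, the 49 transcripts in *lox5b* RNAi and in control RNAi and their summed TPM in each RNAi group, 4 had a library far from the other 3. The measure was its gap to the nearest library over the range of the group. The scale was log2(TPM + 0.5) for single transcripts and TPM for the sums. Chance gives such a library in about 1 in 20 groups.

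SMESG000025375.1 in *lox5b* RNAi had 5.58 TPM in replicate 1 and 7.97 to 8.56 TPM in the others (0.831 of the range). SMESG000056345.1 in *lox5b* RNAi had 2.58 TPM in replicate 2 and 3.63 to 3.82 TPM in the others (0.870 of the range). SMESG000073676.1 in *lox5b* RNAi had 9.61 TPM in replicate 2, above 7.61 to 7.83 TPM in the others (0.881 of the range). SMESG000041256.1 in control RNAi had 28.9 TPM in replicate 1 and 23.003 to 23.3 TPM in the others (0.937 of the range).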

How the results depend on the processing

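The size of the set moved most with the limit on the other groups. With these within 0.3 it held 5 transcripts, against 49. Leaving out 1 library gave 27 to 87, the lowest without *hox3a* replicate 1 and the highest without *lox5b* replicate 4. Rescaled TPM gave 35, of which 13 were among the 49. The median log2 difference of the 49 was -1.18 to -0.96 over the alternatives run. The 49 were chosen by this difference in the same libraries, so nothing is read from its kept direction.

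Of the 49, 48 were called lower in *lox5b* RNAi, which fell to 31 with a pseudocount of 1, to 15 with rescaled TPM and to 29 to 45 without 1 library. Genes called lower in *lox5b* RNAi numbered 621, or 411 with rescaled TPM, 2231 at 1.5-fold and an adjusted p under 0.05 (limma), and 523 to 769 without 1 library. Genes called higher numbered 41, or 62 with a pseudocount of 0.1, 128 with rescaled TPM, 585 at 1.5-fold, and 36 to 79 without 1 library. Rescaling thus moved the share of calls in each direction, and the cause was not tested beyond the shift of 0.15 in the median of all genes.

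With the replicate number as a block, 622 genes were lower, 41 higher and 49 of the 49 lower. Same-numbered *lox5b* and control libraries did not deviate together (r = -0.13, 0.09, -0.06 and 0.01 for numbers 1 to 4, across genes), and 1 of 4 *lox5b* libraries correlated best with its own number, so the numbers were not taken as pairs.

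Depth is unknown in TPM, so a listed 0 sets no limit.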
